A study of Homo sapiens with 15 samples.

Results

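The genes described here encode the nuclear-encoded subunits of the respiratory chain, measured by RNA sequencing in HaCaT cells, an immortalised human keratinocyte line. They were taken from the gene table by their symbols: NDUFA, NDUFB, NDUFC, NDUFS or NDUFV followed by a number for complex I, SDHA to SDHD for complex II, names starting with UQCR for complex III, COX4 to COX8 for complex IV and ATP5 for complex V. The rule took 86 of the 28518 symbols, with 37 genes in complex I, 4 in complex II, 9 in complex III, 17 in complex IV and 19 in complex V. Symbols of pseudogenes (UQCRBP1 and ATP5EP2) were left out. Measured values played no role in the rule.

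The symbols are older ones, so that ATP5B and ATP5A1 are the genes now called ATP5F1B and ATP5F1A, and ATP5G1, ATP5G2 and ATP5G3 are ATP5MC1, ATP5MC2 and ATP5MC3. A few names do not match the enzyme they are grouped under. NDUFA4 is now counted as a subunit of complex IV, COX7A2L is a factor that joins complexes III and IV into supercomplexes, ATP5S and ATP5SL (DMAC2L and DMAC2) are not subunits of the synthase, and ATP5J2-PTCD1 is a read-through transcript of neighbouring genes. These genes were kept under the name rule, and counts with corrected membership are given where they differ.

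The respiratory chain lies in the inner mitochondrial membrane. Complex I takes electrons from NADH and complex II, which is also the succinate dehydrogenase of the tricarboxylic acid cycle, takes them from succinate; both pass them to coenzyme Q. Complex III passes them on to cytochrome c, and complex IV hands them to oxygen. Complexes I, III and IV pump protons as they do so, and complex V, the ATP synthase, lets the protons back through a ring of c subunits that turns its catalytic head. Complex II is encoded wholly in the nucleus, whereas the other complexes also hold subunits translated inside mitochondria, which the name rule does not cover.

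The cells had been edited with CRISPR at CARD14, the gene of a scaffold protein that signals through the protease MALT1 in keratinocytes, and carried either the genotype WT/WT, the substitution R820W on both alleles (R820W/R820W) or a knockout (KO). WT and R820W cells were given either vehicle, which was DMSO, or the MALT1 inhibitor mepazine at 10 µM for 24 h, and KO cells were given vehicle only. Each of the 5 groups held 3 libraries, lettered a, b and c, from experiments that the study describes as independent. How many edited lines stand behind a genotype is not given, so a genotype and a line cannot be told apart, and 1 inhibitor at 1 dose and time cannot be told apart from other actions of that compound.

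Library totals lay between 20630099 and 26974363 counts, and the subunit genes took 0.907 to 1.04% of them. CARD14 itself was measured at 1.13 to 1.76 CPM (the count of a gene relative to its library's total, with TMM scaling) with vehicle in WT cells, 1.23 to 1.87 CPM in R820W cells and 1.53 to 2.01 CPM in KO cells, so the transcript was not lower in the KO libraries and does not check that label. MYC, which the title of the study names, was at 193 to 201 CPM in WT and 193 to 200 CPM in KO cells with vehicle. It was at 154 to 164 CPM in R820W cells with vehicle, 152 to 161 CPM in WT cells with mepazine and 98.6 to 98.9 CPM in R820W cells with mepazine. All 8 keratinocyte markers passed the filter on low counts. The sums of markers given here are CPM of library totals without TMM scaling. For the keratinocyte markers the sum was 4598 to 4820 CPM in WT and 4341 to 5044 CPM in KO cells with vehicle. It was 3922 to 4427 CPM in WT cells with mepazine, and 3396 to 3642 and 3503 to 3783 CPM in R820W cells with vehicle and mepazine. Among markers of other cells, the summed level of 6 fibroblast genes was 2.42 to 2.59 CPM in WT cells with vehicle, 3.53 to 5.20 CPM in WT cells with mepazine, 5.35 to 11.2 CPM in R820W cells with vehicle and 24.3 to 34.2 CPM in R820W cells with mepazine, in which PDGFRB was at 0. That of 4 endothelial genes was 4.28 to 6.81, 10.2 to 13.3, 7.73 to 10.5 and 23.2 to 37.0 CPM in the same order, and the part of these markers in the results was not tested. Only 3 of the 6 fibroblast and 2 of the 4 endothelial genes passed the filter, so these sums can rest on a few genes. The sums of the melanocyte, leukocyte and striated muscle markers reached at most 2.78, 0.536 and 0.170 CPM in any library. Library a of the R820W cells with mepazine was the lowest of its 3 for 64 of the 79 subunit genes tested, against 34.8% of all genes, and the counts in which it is left out are given beside those with it. Other libraries also stood low in their groups: WT vehicle library b for 55 of the 79 (33.1% of all genes), R820W vehicle library c for 45 (31.3%) and WT mepazine library b for 43 (34.7%).

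The promoters of 4 subunit genes are printed here because the results below turn on these genes. SDHB and UQCRFS1 gave the smallest adjusted p-values after mepazine in R820W cells, and ATP5G1 and ATP5G2, which encode the same mature c subunit of the synthase, were called in opposite directions there. Each line gives the 250 bases before the gene start, in the direction of transcription, from the RefSeq window of GRCh38.p14. Capitals mark GCATGCGC, the core of the motif of NRF1, and CCGGAAG, a motif of the ETS family to which GABPA belongs; both factors are known regulators of respiratory chain genes.
SDHB: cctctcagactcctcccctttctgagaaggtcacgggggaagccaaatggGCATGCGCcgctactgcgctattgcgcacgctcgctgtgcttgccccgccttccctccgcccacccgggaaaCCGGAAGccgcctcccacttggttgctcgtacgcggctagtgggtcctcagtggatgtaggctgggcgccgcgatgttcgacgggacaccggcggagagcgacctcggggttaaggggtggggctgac
UQCRFS1: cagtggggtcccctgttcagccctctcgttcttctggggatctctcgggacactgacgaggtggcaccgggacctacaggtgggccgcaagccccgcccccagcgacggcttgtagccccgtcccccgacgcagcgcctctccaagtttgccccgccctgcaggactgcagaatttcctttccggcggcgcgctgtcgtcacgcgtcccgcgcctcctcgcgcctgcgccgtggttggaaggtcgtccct
ATP5G1: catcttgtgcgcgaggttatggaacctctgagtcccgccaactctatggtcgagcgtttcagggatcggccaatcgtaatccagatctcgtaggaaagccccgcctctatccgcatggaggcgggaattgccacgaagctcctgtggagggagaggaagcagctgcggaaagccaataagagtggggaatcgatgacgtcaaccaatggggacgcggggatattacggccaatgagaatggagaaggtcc
ATP5G2: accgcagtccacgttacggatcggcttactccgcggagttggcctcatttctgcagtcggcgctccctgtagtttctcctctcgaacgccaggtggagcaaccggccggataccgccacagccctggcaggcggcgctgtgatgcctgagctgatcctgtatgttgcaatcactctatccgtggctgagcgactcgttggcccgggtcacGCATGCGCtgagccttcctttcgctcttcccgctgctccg

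The SDHB stretch is chr1:17054033-17054282 on the minus strand, with GCATGCGC starting 200 bases and CCGGAAG starting 128 bases before the gene start. The UQCRFS1 stretch is chr19:29213152-29213401 on the minus strand and holds none of the motifs searched. The ATP5G1 stretch is chr17:48892537-48892786 on the plus strand, and its only match, the E-box CACGTG, lies just after the gene start and outside the printed bases. The ATP5G2 stretch is chr12:53676084-53676333 on the minus strand, the first of its 3 listed windows, with GCATGCGC starting 40 bases before the start.

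RefSeq windows of 250 bases before to 50 bases after the start were found for 68 of the 86 genes. GCATGCGC was present on either strand in 13 of them (19.1%), against 3.27% of the 27305 gene windows. The longer NRF1 motif, which is the same run preceded by GC and so contains it, was in 4 (5.88% against 1.36%), CCGGAAG was in 19 (27.9% against 10.7%), and CACGTG, the E-box that MYC and other factors bind, was in 7 (10.3% against 7.43%). These matches are letters in a window and not measured binding sites. The 27305 windows were not limited by gene type or by level in these cells. The shares thus compare unlike sets, and their difference was not tested.

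Of the 86 genes, 79 passed the filter on low counts and were tested among 14971 genes. Their mean level ran from 2.15 CPM for ATP5J2-PTCD1 to 1072 CPM for ATP5B, with a median of 96.5 CPM. The 7 that did not pass were UQCRHL (11 counts over all 15 libraries), COX7A1 (24), ATP5L2 (17) and COX4I2, COX6A2, COX7B2 and COX8C, which had 0 counts in every library. A count of 0 allows up to 3 counts per library, or 0.111 to 0.145 CPM, from counting error alone. Isoforms known from lung (COX4I2), from heart and skeletal muscle (COX6A2, COX7A1) and from testis (COX7B2, COX8C) were thus below or near detection at this depth, while COX4I1, COX6A1, COX7A2, COX7B and COX8A were measured in all libraries. Most of these genes have processed pseudogenes or close copies (UQCRH and UQCRHL, for example), and how reads shared with them were counted is not given.

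Per kilobase of transcript, the genes of complex I were the lowest and those of complex IV the highest. In WT cells with vehicle the median of the tested genes was 78.8 ± 2.69 CPM per kilobase for complex I, 139 ± 4.31 for complex III, 159 ± 5.42 for complex V, 166 ± 4.53 for complex II and 233 ± 10.3 for complex IV (mean ± SD of the library medians, n = 3). Complexes V and II were closer to each other than the sum of their SDs, and the others stood further apart than that. The highest genes were the β and α subunits of the synthase head, ATP5B at 623 ± 18.1 and ATP5A1 at 493 ± 2.22 CPM per kilobase. They were followed by COX7C at 342 ± 7.71, ATP5J2 at 340 ± 17.5 and COX4I1, which encodes the regulatory subunit 4 of complex IV, at 332 ± 5.31. These are RNA levels and say nothing of how many copies of each complex the cells held. They also rest on the transcript length taken for each gene.

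**Figure D1:**
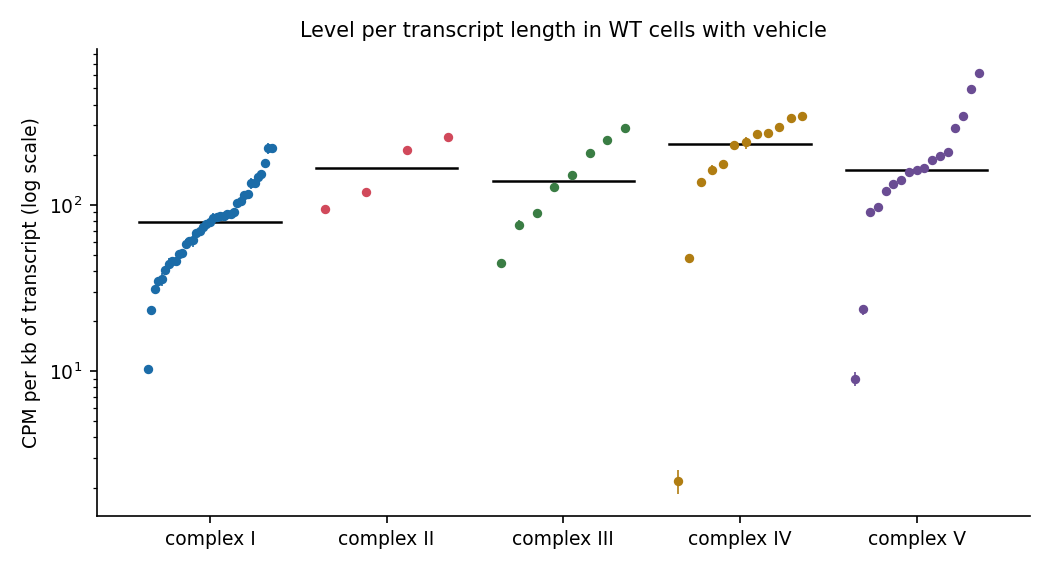
Level of each tested subunit gene in WT cells with vehicle, as CPM per kilobase of transcript on a logarithmic axis, by complex; points are means of 3 libraries with SD, and horizontal bars are medians over genes. ATP5J2-PTCD1, at 0 in these libraries, is not drawn. ATP5B and ATP5A1 stand highest and COX6B2 lowest.

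Within complex II, whose 4 subunits are present once each in the enzyme, the membrane anchors SDHC and SDHD stood at 257 ± 5.74 and 212 ± 4.09 CPM per kilobase. The iron-sulfur subunit SDHB was at 119 ± 5.51 and the flavoprotein SDHA at 94.6 ± 3.30 CPM per kilobase (SD, n = 3). UQCRFS1, the Rieske iron-sulfur protein, was the lowest tested gene of complex III at 44.7 ± 0.385 CPM per kilobase. These orders depend on the transcript length taken: 460 bases for SDHC, 2107.5 for SDHA and 3475 for UQCRFS1. Without division by length, as means over all 15 libraries, SDHA was the highest gene of complex II (196 CPM) and SDHC the lowest (119 CPM). UQCRFS1 was then at 145 CPM, and UQCR11 was the lowest tested gene of complex III at 62.4 CPM. Among the genes of the c subunit, ATP5G3 was at 291 ± 6.02, ATP5G1 at 141 ± 4.01 and ATP5G2 at 90.2 ± 0.920, and each step in that order was larger than the SDs. COX6B2, the testis form of subunit 6B, was at 2.19 ± 0.369 CPM per kilobase, under the other tested genes of complex IV.

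The first comparison asked what the R820W substitution does without drug. With vehicle, 4 of the 79 genes were lower in R820W than in WT cells and none was higher, against 8.61% lower and 10.6% higher among all genes tested (edgeR quasi-likelihood test, Benjamini-Hochberg adjustment over all genes, threshold 0.05). The 4 were 3 accessory subunits of complex I, NDUFS4, NDUFS6 and NDUFB10, and UQCR11, a small subunit of complex III. Their levels were 0.88 to 0.91 of WT. The share of members called lower was 5.06%, or 11.5% against 11.2% of all genes when only the groups compared were fitted.

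NDUFS4, an accessory subunit of the NADH-oxidising module whose loss causes Leigh syndrome, was at 40.9, 40.2 and 41.8 CPM in WT libraries a, b and c and at 36.6, 34.9 and 36.6 CPM in R820W libraries. NDUFB10 was at 101, 102 and 107 CPM in WT and 90.9, 93.2 and 99.8 CPM in R820W cells. Every R820W library was below every WT library for both genes. The log2 fold changes were -0.18 for NDUFS4 (SE 0.062, edgeR adjusted p = 0.0358) and -0.13 for NDUFB10 (SE 0.042, adjusted p = 0.029).

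NDUFS6, a zinc-binding subunit of complex I, was at 75.5, 76.5 and 70.4 CPM in WT and 69.7, 66.9 and 63.2 CPM in R820W libraries. UQCR11 was at 71.9, 64.6 and 65.0 CPM in WT and 64.2, 60.0 and 56.6 CPM in R820W libraries. The R820W libraries lay below the WT libraries without overlap in both cases, by the narrowest of margins for UQCR11. Such separation was found for 15 of the 79 members and for 18.1% of all genes tested. Alone it does not set these genes apart. The edgeR adjusted p-values were 0.0442 for NDUFS6 (log2 fold change -0.16, SE 0.054) and 0.0446 for UQCR11 (-0.16, SE 0.055).

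The other subunit genes lay close to WT: the median log2 fold change was -0.03, against 0.00 over all genes, with 60 of 79 below 0. That median was -0.07 without R820W library a and -0.01 without R820W library c. None of these 4 calls was kept when each of the 6 libraries was left out in turn. The count was 1 without WT library a, 2 without WT library b or c, 3 without R820W library a, 0 without R820W library b and 1 without R820W library c. Libraries outside the comparison enter through the shared spread, and the count was 2 without WT mepazine library b and 8 without R820W mepazine library a.

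The knockout asked the same of losing CARD14. No subunit gene was called in KO against WT cells by the edgeR quasi-likelihood test, where 0.287% of all genes were called higher and 0.0868% lower. At an unadjusted p under 0.05 there were 5 genes, all with higher values in KO cells: UQCRQ, NDUFA11, NDUFS8, NDUFA8 and ATP5G1. That is 6.33% of the members, against 7.62% of all genes. Leaving out the read-through transcript, log2 fold changes ran from -0.22 for COX6B2 to 0.12 for NDUFA11, an accessory subunit in the membrane arm of complex I. Values were positive for 63 of 79 genes, with a median of 0.03 against 0.00 over all genes. DESeq2 called 1 gene higher, ATP5J2-PTCD1, which had 0 counts in all WT libraries with vehicle.

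Mepazine in WT cells asked what the inhibitor does to cells without the substitution. It lowered 9 of 79 subunit genes and raised none, a share of 11.4%, against 11.6% called lower and 12.4% called higher among all genes. When only the groups compared were fitted, 19 of 78 were lower (24.4% against 16% of all genes), and without R820W mepazine library a, which enters through the shared spread, 14 of 79 were (17.7% against 14%). The 9 were NDUFB9, NDUFS3 and NDUFA9 of complex I, SDHB of complex II, UQCRC2 and UQCR11 of complex III, and ATP5D, ATP5B and ATP5F1 of complex V. None of the 12 tested genes of complex IV passed. The median over the 79 was -0.06, against 0.02 over all genes.

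SDHB, which carries the iron-sulfur clusters that lead electrons from the flavin of complex II to coenzyme Q, was at 137, 131 and 144 CPM in WT libraries with vehicle and 119, 121 and 122 CPM in those with mepazine. ATP5B, the catalytic β subunit of the synthase, was at 1180, 1114 and 1142 CPM with vehicle and 1035, 1006 and 1061 CPM with mepazine. UQCRC2, a core subunit of complex III, was at 294, 286 and 286 CPM with vehicle and 261, 262 and 267 CPM with mepazine. In all 3 genes every treated library lay below every vehicle library. This held for 29 of the 79 members and for 19.1% of all genes tested.

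The log2 fold change of SDHB was -0.19 (SE 0.041, edgeR adjusted p = 0.00132), that of ATP5B -0.15 (SE 0.038, adjusted p = 0.00493) and that of UQCRC2 -0.13 (SE 0.037, adjusted p = 0.0098). NDUFB9, an accessory subunit in the membrane arm of complex I, gave the largest fall, -0.23 (SE 0.057, adjusted p = 0.00459). These 4 calls and that of ATP5D, the δ subunit of the central stalk (-0.19, adjusted p = 0.00478), were kept whichever library was left out. The calls of NDUFS3 (lost without WT vehicle library a or c or mepazine library b), UQCR11 (without vehicle library a or mepazine library c), NDUFA9 (in 5 of 6) and ATP5F1 (in 4 of 6) were not, and the count was 5 without vehicle library a.

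In R820W cells mepazine lowered 39 of the 79 subunit genes and raised 2. This was 49.4% of the members, against 24.8% called lower and 22.1% called higher among all genes. The median log2 fold change was -0.16 (0.02 over all genes), 73 of 79 values were below 0, and the genes called lower ran from -0.34 for SDHB to -0.11 for NDUFA10. The changes were small: the strongest left 0.790 of the vehicle level. With upper-quartile scaling, which moved the split of all genes from 3303 higher and 3710 lower to 4270 and 2777, 26 members were lower (32.9% against 18.5% of all genes) and 2 higher, with a median of -0.10. Without mepazine library a the test called 30 members lower (38% against 23.6%) and 1 higher, with a median of -0.12. Without all libraries of letter a it called 16 members and 2920 of all genes lower, with a median of -0.09 over the members.

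By complex, 20 of 37 genes of complex I fell (median -0.16), 1 of 4 of complex II (-0.08), 5 of 8 of complex III (-0.18), 3 of 12 of complex IV (-0.11) and 10 of 18 of complex V (-0.18); 1 gene each of complexes IV and V rose. With NDUFA4 moved to complex IV and the names that are not subunits left out, the counts were 19 of 36 for complex I, 4 of 13 for complex IV and 10 of 15 for complex V. No test between complexes was made, and the genes of a complex are not replicates of it.

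**Figure D2:**
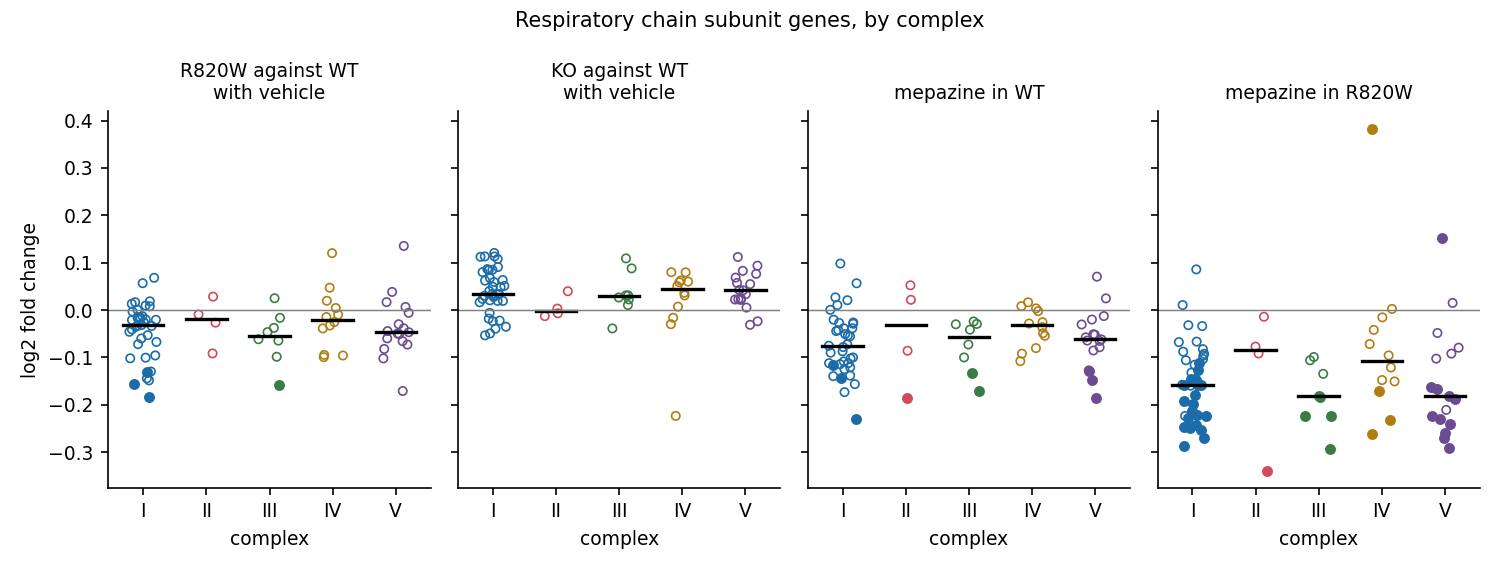
Log2 fold change of each tested subunit gene by complex in 4 comparisons; filled points have an edgeR adjusted p under 0.05 over all genes, open points do not, and bars are medians over genes. ATP5J2-PTCD1 is left out. Most filled points lie in the panel of mepazine in R820W cells, and most of these are below 0.

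Summed over all 86 genes, the level was 10481, 10141 and 10483 CPM in WT libraries with vehicle, 10360, 10043 and 9895 CPM in R820W libraries with vehicle and 9929, 9663 and 9932 CPM in WT libraries with mepazine. In R820W libraries with mepazine it was 8488, 9318 and 9219 CPM, below each of those 9 libraries. The sum for complex V, to which ATP5B and ATP5A1 add most, was 4078 ± 60.4 CPM in WT cells with vehicle and 3483 ± 123 CPM in R820W cells with mepazine (SD, n = 3). That of complex I was 2915 ± 63.7 and 2545 ± 142, that of complex III 1178 ± 25.8 and 1002 ± 54.5, that of complex IV 1560 ± 33.1 and 1401 ± 121, and that of complex II 638 ± 15.4 and 578 ± 18.4. In bulk RNA, fewer cells with a transcript and less of it per cell cannot be told apart.

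**Figure D3:**
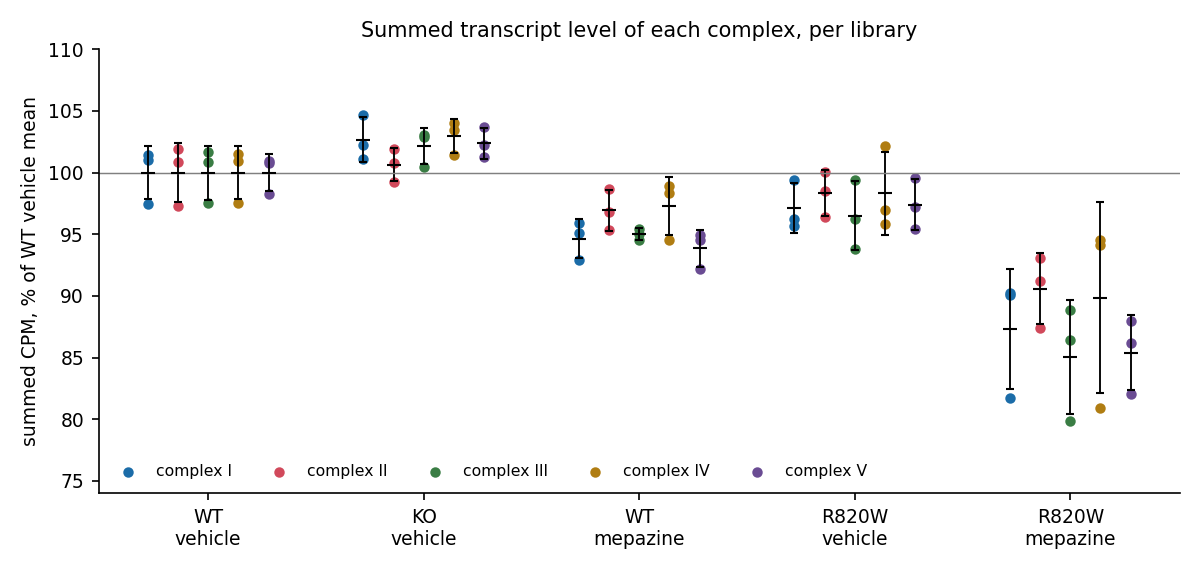
Summed CPM of the genes of each complex in each library, as a percentage of the mean of WT cells with vehicle; points are libraries and bars mean ± SD (n = 3), on an axis that does not start at 0. The R820W libraries with mepazine are the lowest group in every complex, and library a is the lowest of its 3 in each.

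In complex I genes of the catalytic core and of the accessory subunits were both among those called. Of the 7 nuclear core genes, 4 fell (median -0.15): NDUFS1, NDUFS3, NDUFS7 and NDUFS8; of 29 accessory genes, 15 fell (median -0.16), and the groups were not tested against each other. NDUFS1, which holds iron-sulfur clusters of the electron path, was at 164.3, 162.2 and 163.2 CPM in R820W libraries with vehicle and 142.4, 145.9 and 144.2 CPM with mepazine. The groups did not overlap, and the log2 fold change was -0.18 (edgeR adjusted p = 0.000275). NDUFV1, which binds NADH and the flavin, was at 169, 158 and 158 CPM with vehicle and 161, 143 and 153 CPM with mepazine, overlapping ranges, with a log2 fold change of -0.08 (adjusted p = 0.221). NDUFA9, which helps to join the peripheral arm to the membrane arm, fell from 139, 139 and 131 CPM to 110, 119 and 117 CPM (-0.24, SE 0.042, adjusted p = 3.1e-05). NDUFB9 fell from 155, 148 and 143 CPM to 113, 119 and 134 CPM (-0.29, SE 0.058, adjusted p = 0.00024). Neither gene had a treated library as high as any vehicle library. With mepazine in R820W cells, 36 of the 79 members and 27.3% of all genes tested were lower without overlap.

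Complex II differed among its own genes. SDHB fell from 127, 131 and 128 CPM in R820W libraries with vehicle to 102, 104 and 99.9 CPM with mepazine, below all other 12 libraries of the study (log2 fold change -0.34, SE 0.041, edgeR adjusted p = 1.75e-07). It stood at 135, 141 and 137 CPM in KO cells. SDHA was at 203, 198 and 194 CPM with vehicle and 194, 181 and 188 CPM with mepazine. Its ranges touched at 194 CPM and it did not pass the test (-0.08, adjusted p = 0.134). SDHC was at 124.4, 120.1 and 117.0 CPM with vehicle and 107.0, 126.7 and 124.7 CPM with mepazine (-0.01, adjusted p = 0.84). SDHD was at 183, 179 and 175 CPM with vehicle and 154, 182 and 169 CPM with mepazine (-0.09, adjusted p = 0.107). For both membrane anchors the treated libraries were spread around or into the vehicle range, with library a the lowest. Whether SDHB differs from the other 3 was not tested.

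In complex III, UQCRFS1, which passes electrons from coenzyme Q towards cytochrome c1, fell from 148, 148 and 140 CPM to 119, 123 and 114 CPM (log2 fold change -0.29, SE 0.039, edgeR adjusted p = 8.37e-07). These were the lowest 3 of the 15 libraries, and WT cells with vehicle held 155, 154 and 157 CPM. UQCRC2 fell from 279, 275 and 273 CPM to 236, 246 and 248 CPM (-0.18, SE 0.037, adjusted p = 0.000212). Its partner core subunit UQCRC1 gave -0.11 with an adjusted p of 0.0588. The small subunits UQCR10, UQCRQ and UQCRH, the last of which is the hinge protein at cytochrome c1, also fell (-0.22, -0.18 and -0.22), so that genes of the catalytic part and of the small subunits were among the 5 called.

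In complex IV, COX5A, COX7C and COX6B1 fell and COX6B2 rose. The 3 of 12 genes that fell are a share close to the 24.8% of all genes, as is the 1 of 4 in complex II. COX5A, a subunit on the matrix side, was at 162.6, 162.3 and 158.0 CPM with vehicle and 113.6, 143.5 and 146.0 CPM with mepazine (-0.26, SE 0.062, edgeR adjusted p = 0.00154). COX7C was at 224, 219 and 222 CPM with vehicle and 162, 207 and 197 CPM with mepazine (-0.23, SE 0.058, adjusted p = 0.00205). In both, library a was far below the other 2 treated libraries, which were themselves below the vehicle range. COX4I1 was at 269, 250 and 253 CPM with vehicle and 229, 241 and 253 CPM with mepazine, and did not pass (-0.10, adjusted p = 0.0658). COX8A (-0.12, adjusted p = 0.0505), a small membrane subunit, did not pass, and neither did COX7A2L (0.00, adjusted p = 0.98). COX6B2 rose from 4.18, 4.19 and 3.56 CPM to 5.60, 4.42 and 5.48 CPM (0.38, SE 0.15, adjusted p = 0.0398). At a mean of 3.91 CPM this gene is among the lowest tested, and its call was lost in 5 of 6 fits without 1 library (all but that without mepazine library b, with values from 0.31 to 0.47) and with DESeq2 (adjusted p = 0.0798).

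In complex V all 5 genes of the F1 head and central stalk fell, with a median of -0.19: ATP5A1, ATP5B, ATP5C1, ATP5D and ATP5E. ATP5B fell from 1112, 1094 and 1077 CPM to 905, 917 and 919 CPM (log2 fold change -0.26, SE 0.038, edgeR adjusted p = 2.75e-06). ATP5A1, its partner in the catalytic ring, fell from 1055, 1061 and 1032 CPM to 924, 974 and 904 CPM (-0.17, SE 0.038, adjusted p = 0.000684). ATP5D fell from 81.1, 80.4 and 84.2 CPM to 70.6, 64.5 and 68.2 CPM (-0.27, SE 0.048, adjusted p = 3.71e-05). The groups did not overlap for any of ATP5B, ATP5A1 and ATP5D, while for ATP5E they did (167 to 189 CPM with vehicle and 146 to 174 CPM with mepazine). Of the 4 genes of the peripheral stalk, which holds the head still, ATP5F1 (-0.22, adjusted p = 0.00014) and ATP5J (-0.29, adjusted p = 0.0116) fell, while ATP5H gave 0.02 (adjusted p = 0.827) and ATP5O -0.08 (adjusted p = 0.164). The ATP5J call was lost when only the groups compared were fitted.

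The 3 genes of the c subunit did not move together. They encode the same mature protein behind different import sequences. ATP5G1 fell from 73.4, 72.2 and 74.6 CPM to 56.8, 64.8 and 65.2 CPM (-0.24, SE 0.055, edgeR adjusted p = 0.000737), and ATP5G3, the most abundant, fell from 239, 231 and 224 CPM to 182, 211 and 198 CPM (-0.23, SE 0.045, adjusted p = 0.000141). Both were without overlap. ATP5G2 rose from 79.6, 72.9 and 72.9 CPM to 78.2, 78.9 and 93.3 CPM (0.15, SE 0.06, adjusted p = 0.0394), with mepazine libraries a and b inside the vehicle range and library c above it. The ATP5G2 call was lost without R820W vehicle library b or c, without mepazine library c (values over the leave-outs from 0.06 to 0.19), with DESeq2 (adjusted p = 0.0503) and when only the groups compared were fitted (adjusted p = 0.0668).

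As a share of the counts of the 3 genes, which does not depend on library scaling, ATP5G2 made up 18.6 ± 0.237% in WT cells with vehicle, 18.3 ± 0.693% in KO cells, 19.8 ± 0.466% in R820W cells with vehicle and 19.5 ± 0.293% in WT cells with mepazine (SD, n = 3). In R820W cells with mepazine it made up 24.6, 22.3 and 26.2%, above all other libraries. The share of ATP5G3 was 60.9 ± 0.595% in R820W cells with vehicle and 57.5 ± 1.95% with mepazine, and that of ATP5G1 was 19.3 ± 0.705% and 18.1 ± 0.224%. The shares use counts without correction for gene length, and a share shows unequal change and not which gene moved.

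**Figure D4:**
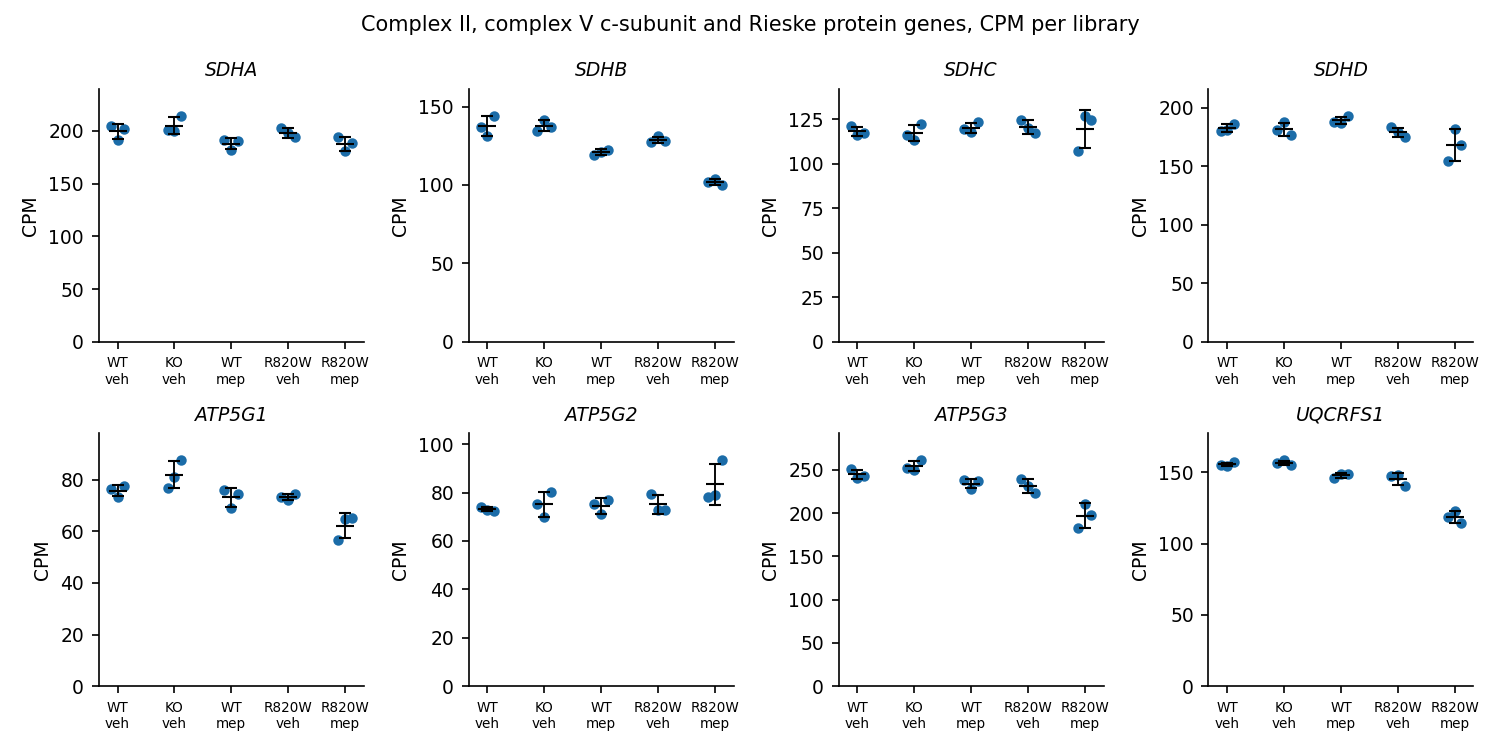
CPM of the 4 complex II genes, the 3 c subunit genes and UQCRFS1 in each library; points are libraries a, b and c from left to right, bars are mean ± SD (n = 3), and axes start at 0. SDHB and UQCRFS1 are lowest in all 3 R820W libraries with mepazine, while SDHC and ATP5G2 are not.

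The alleles were also compared with mepazine present. In R820W cells 33 of 79 subunit genes were lower than in WT cells (41.8%) and 2 higher, against 25.4% lower and 19.4% higher among all genes, with a median of -0.13 (-0.01 over all genes). The counts of genes lower were 14 in complex I, 2 in complex II, 4 in complex III, 4 in complex IV and 9 in complex V. UQCRFS1 was at 146, 149 and 149 CPM in WT and 119, 123 and 114 CPM in R820W libraries with mepazine (log2 fold change -0.32, SE 0.039, edgeR adjusted p = 2.56e-07). SDHB gave -0.25 (SE 0.041, adjusted p = 2.22e-05), ATP5G3 -0.25 (SE 0.045, adjusted p = 6.26e-05), NDUFB10 -0.21 (SE 0.042, adjusted p = 0.000166) and ATP5B -0.18 (SE 0.038, adjusted p = 0.000344). The genes higher were COX6B2 (0.50, adjusted p = 0.00931) and ATP5G2 (0.17, adjusted p = 0.0266). Neither was called without WT library b and ATP5G2 was not called without R820W library c.

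This comparison leaned on library a of the R820W cells with mepazine: without it 18 members were lower and 2 higher, with a median of -0.08, and the share lower was 22.8% against 22% of all genes. Upper-quartile scaling, which turned the split of all genes from 2909 higher and 3808 lower to 3818 and 2657, left 15 members lower (19% against 17.7% of all genes) and 3 higher, with a median of -0.07. SDHD (-0.17, adjusted p = 0.00372) was lower with library a and not called without it. When only the groups compared were fitted, 22 members were lower (27.8% against 21.1% of all genes).

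Whether the drug response differed between the alleles was tested as an interaction. Of the 79 genes only UQCRFS1 passed (-0.22, SE 0.055, edgeR adjusted p = 0.0247), where 3.07% of all genes were called lower and 0.788% higher; 12 members (15.2%) had an unadjusted p under 0.05, against 19.4% of all genes. UQCRFS1 gave 155, 154 and 157 CPM with vehicle and 146, 149 and 149 CPM with mepazine in WT cells, against 148, 148 and 140 and then 119, 123 and 114 CPM in R820W cells. The interaction values of SDHB (-0.15, adjusted p = 0.132), ATP5G1 (-0.19, adjusted p = 0.169), ATP5G3 (-0.17, adjusted p = 0.14) and ATP5G2 (0.13, adjusted p = 0.427) did not pass. The median over the 79 genes was -0.09, against -0.03 over all genes, with 67 below 0. It was -0.04 without R820W mepazine library a (-0.02 over all genes) and -0.04 with upper-quartile scaling (0.03 over all genes). Without all libraries of letter a it was -0.02, no longer below the -0.03 over all genes. The UQCRFS1 call was lost without WT mepazine library b, R820W vehicle library a or b, or R820W mepazine library c, with values from -0.25 to -0.19 over the 12 leave-outs, and under upper-quartile scaling (-0.17, adjusted p = 0.0884), in which the split of all genes went from 118 higher and 459 lower to 155 and 159.

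The responses in WT and in R820W cells come from libraries that the comparisons do not share. Over 78 genes, without the read-through transcript, 62 were below 0 in both and 66 were lower in R820W than in WT cells. Of the 9 genes called lower in WT cells 8 were called lower in R820W cells (88.9% of the first list and 20.5% of the second), the exception being UQCR11. The correlation of the log2 fold changes across these genes was 0.495 (Pearson) and 0.485 (Spearman), a description only, since genes in the same libraries are not independent.

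**Figure D5:**
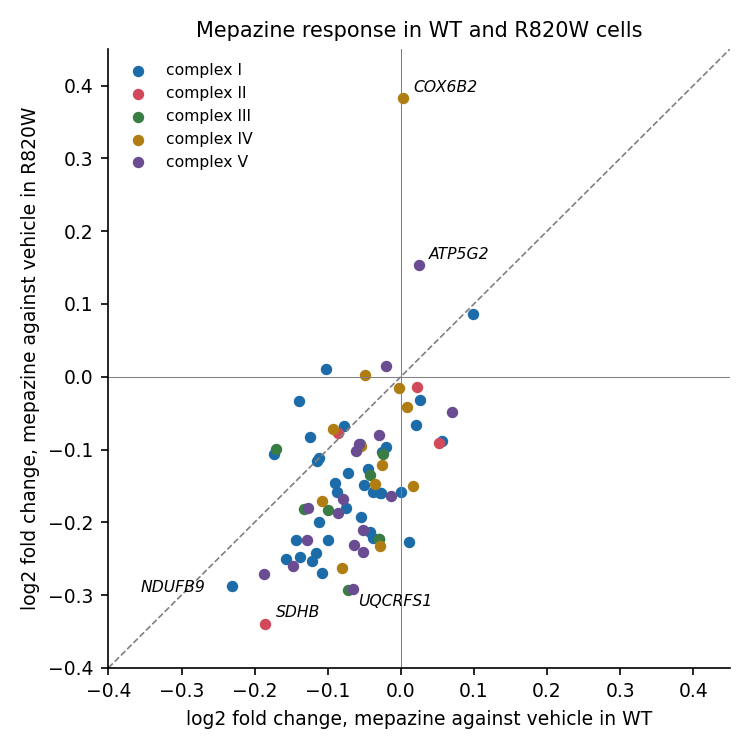
Log2 fold change with mepazine in WT cells (horizontal) and in R820W cells (vertical) for 78 tested subunit genes; the dashed line marks equal change and ATP5J2-PTCD1 is left out. Most points lie below the line and 62 of 78 lie below 0 on both axes.

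Promoter motifs and calls were set side by side as a description. After mepazine in R820W cells, 7 of 13 tested genes with GCATGCGC and 26 of 52 without it fell. With CCGGAAG it was 8 of 19 against 25 of 46, and with CACGTG 6 of 7 against 27 of 58. With the longer NRF1 motif it was 1 of 4 against 32 of 61. Among all genes tested 24.8% fell, and the share among all genes that hold each motif was not counted. The 7 genes with the E-box were ATP5F1, ATP5G1, ATP5I, NDUFA11, NDUFA7, NDUFS7 and UQCR11, of which UQCR11 did not pass. SDHB and ATP5G2 both hold GCATGCGC, as the capitals above show, and were called in opposite directions. The ATP5G2 call is the weak one that was lost with DESeq2 and in some fits without 1 library.

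ATP5J2-PTCD1 needs its own account. It had 0 counts in 9 libraries and 77 to 214 counts in the other 6, at 3.54 and 4.41 CPM in WT mepazine libraries a and c, 9.30 CPM in R820W vehicle library c, 6.65 CPM in R820W mepazine library a and 3.68 and 4.70 CPM in KO libraries b and c. The split ran through groups and not between them. In R820W vehicle library c, where it was highest, its downstream partner PTCD1 was at 14.6 CPM, against 23.2 and 25.8 CPM in libraries a and b. The genes overlap, so their reads cannot be assigned with certainty, and no fold change is given.

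Other genes of the pathway were counted from lists, to be read against 24.8% of all genes called lower with mepazine in R820W cells, 11.6% in WT cells and 8.61% in R820W against WT cells with vehicle. Of 10 subunits and carriers that the name rule misses, such as cytochrome c, 6 were lower after mepazine in R820W cells (median -0.18), 2 in WT cells and none in R820W against WT cells with vehicle. CYCS, cytochrome c itself, was at 685 ± 13.97 CPM in WT cells with vehicle, 623 ± 28.9 in WT cells with mepazine, 621 ± 23.3 in R820W cells with vehicle and 441 ± 40.0 CPM in R820W cells with mepazine (SD, n = 3). Its log2 fold change in R820W cells was -0.49 (SE 0.052, edgeR adjusted p = 2.38e-08), larger in size than that of any subunit gene called lower. Of 51 assembly factors, which build the complexes without being part of them, 24 fell and 1 rose in R820W cells (median -0.14), 8 fell and 1 rose in WT cells, and 9 were lower in R820W than in WT cells with vehicle. The factors that fell in R820W cells were 7 of 16 for complex I, 2 of 4 for complex II, 4 of 5 for complex III, 10 of 22 for complex IV and 1 of 4 for complex V. NDUFAF4, a factor for complex I, gave -0.62 (SE 0.065, adjusted p = 1.42e-08) and TMEM70, a factor for complex V, -0.47 (SE 0.068, adjusted p = 2.49e-06). The factor that rose was SURF1, needed for complex IV (0.19, adjusted p = 0.028), a call lost without R820W vehicle library b or c, without mepazine library c and with DESeq2.

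Ribosomal proteins were the most similar large families to compare with. After mepazine in R820W cells, 63 of 76 genes of the mitochondrial ribosome fell (median -0.31) and 64 of 79 tested genes of the cytosolic ribosome fell (median -0.19), beside 39 of 79 respiratory chain genes (median -0.16). In WT cells the counts were 45 of 76, 53 of 79 and 9 of 79, and in R820W against WT cells with vehicle they were 20, 19 and 4. Among all genes the shares called lower in these 3 comparisons were 24.8, 11.6 and 8.61%. The respiratory chain genes thus had the smallest share of calls of the 3 families in each of these comparisons, a difference that was not tested. No gene of any of these lists was called in KO cells by edgeR.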

How the data were processed

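RNA sequencing of 15 libraries was used. The authors deposited raw counts per gene symbol and library. Per the labels' protocols, total RNA was made into libraries with the NEBNext Ultra II Directional kit. FastQC, MACS2, DESeq2 and hg19 appear in the submitters' processing notes, without roles or versions. Aligner, counter, annotation and strandedness of counting were not given in the sources used, so overlapping and antisense genes are uncertain.

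Counts were analysed in R 4.3.3. The filterByExpr filter at a minimum count of 10 kept 14971 of 28518 symbols, which were scaled by TMM and fitted with edgeR 4.0.16 (glmQLFit, robust, and glmQLFTest, two-sided) over all 15 libraries with group as the only term. The p-values were adjusted by Benjamini-Hochberg over all genes tested, with a threshold of 0.05. CPM values use TMM library sizes, except the sums of cell type markers, which use library totals without TMM scaling. A standard error is the log2 fold change divided by the square root of its F statistic. The depth per library, 20630099 to 26974363 counts, sets the limit of 3 counts for a count of 0. That limit covers counting error only, whereas SDs and standard errors include the spread between libraries. The labels name separate experiments but no further source of the libraries. The fit was tested on simulated data, in 3 draws for R820W against WT with vehicle. It recovered 61 of 150 planted changes of 0.25 on the log2 scale and 140 of 150 of 2. Of its 442 calls 19 were false. Genes that were not called may thus still have changed by small amounts. Far fewer genes were planted as changed than were called in that comparison in the real data (1590 higher and 1289 lower). Shifts of whole libraries were not simulated either, so these recovered and false shares may not carry over to the real data.

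Alternatives were DESeq2 1.42.0, its size factors in edgeR, upper-quartile scaling, no filter, a filter of 1 CPM in 3 libraries, a fit of only the groups compared, a replicate block and leaving out each library or letter. Lists were compared by counts and medians, with no test. Levels between genes were divided by the median length of the basic protein-coding transcripts of each gene in GENCODE 29 (GRCh38), matched by symbol for 86 of 86 genes; no coordinates of hg19 were used. Promoter windows came from RefSeq (GRCh38.p14). Named genes were, per comparison, up to 6 members with the smallest adjusted p in each direction, 1 gene per complex and the catalytic genes and isoform sets whatever their values, and from each list up to 3 genes per direction. COX5A, COX7C, SDHC, SDHD, NDUFA10 and other genes named to complete a complex, a role or a count fall outside that rule and were chosen after their values were seen. The subunit genes, the lists and the rule were chosen with earlier results of these data known.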

Additional observations from a re-analysis of the deposited data

Results flagged for a closer look

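The response to mepazine differed between R820W and WT cells, by the edgeR interaction test adjusted over all genes, for 6 of the 183 tested genes of the respiratory chain subunits and the lists other than ribosomal proteins (3.28%, against 3.85% of all genes in either direction). All 6 values were negative, and 3.07% of all genes were called lower. The share was thus near that of all genes. The response also differed for 5 of 76 mitochondrial ribosomal proteins (MRPL3, MRPS26, MRPL36, MRPS18C and MRPS16). Negative values mean a deeper fall, or a lower value, in R820W cells. For UQCRFS1, the Rieske protein of complex III, the difference was -0.22 on the log2 scale (adjusted p = 0.0247). For CYCS, cytochrome c, it was -0.36 (adjusted p = 0.00854), and this call was kept in all 12 fits without 1 library. For PPARGC1B, a coactivator of mitochondrial biogenesis, it was -0.41 (adjusted p = 0.00722), also kept in all 12; the gene stood at 35.9 and 38.3 CPM in WT cells with vehicle and mepazine and at 33.8 and 27.2 CPM in R820W cells. For TMEM70, an assembly factor of complex V, it was -0.39 (adjusted p = 0.0212), lost without WT mepazine library b, R820W vehicle library a or R820W mepazine library a or c. For IDH3A, a subunit of isocitrate dehydrogenase, it was -0.24 (adjusted p = 0.0225), lost without WT vehicle library c, WT mepazine library b, R820W vehicle library b or c, or R820W mepazine library a or c. For COX11, a copper assembly factor of complex IV, it was -0.27 (adjusted p = 0.047), lost in 11 of 12 such fits, the exception being that without R820W mepazine library b, and also with DESeq2 size factors. Under upper-quartile scaling the calls of UQCRFS1, TMEM70, IDH3A and COX11 were lost.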

How the results depend on the processing

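The comparison with all genes changed side in some settings. In R820W against WT with vehicle, 5.06% of members were lower against 8.61% of all genes. When only the groups compared were fitted, it was 11.5% against 11.2%. With mepazine in WT these shares were 11.4% against 11.6%, and then 24.4% against 16%. Under upper-quartile scaling both member shares stayed below those of all genes. The interaction median was -0.09 against -0.03, and -0.02 against -0.03 without all libraries of letter a. With DESeq2, 1 member (ATP5J2-PTCD1) was higher in each of R820W against WT with vehicle, KO against WT and mepazine in WT, and 0 were higher with mepazine in R820W. Upper-quartile scaling left 0 lower in R820W against WT with vehicle, 15 with mepazine and 0 in the interaction. Fits of only the groups compared gave 9 lower in R820W against WT with vehicle and 19 lower with mepazine in WT. They gave 36 lower and 1 higher with mepazine in R820W, and 22 lower in R820W against WT with mepazine, against 33 in the main fit. Leaving out 1 of the 15 libraries, those outside the groups compared being added after seeing the data, gave 0 to 8 lower in R820W against WT with vehicle, 5 to 14 with mepazine in WT, 30 to 47 lower and 0 to 2 higher with mepazine in R820W, 18 to 40 lower and 0 to 2 higher in R820W against WT with mepazine, and 0 to 9 lower in the interaction (9 without R820W mepazine library b; 0 without WT mepazine library b, R820W vehicle library a or b, or R820W mepazine library c). Leaving out all libraries of 1 letter gave 0 to 1, 0 to 8, 16 to 40 lower and 0 to 1 higher, 10 to 37 lower and 1 higher, and 0 in the same order. Without letter a, 16 members and 2920 of all genes were lower with mepazine in R820W, against 39 and 3710 in the main fit. In R820W against WT with mepazine it was 10 and 2739, against 33 and 3808. With mepazine in WT it was 0 and 695, against 9 and 1733. The members thus lost a larger part of their calls than all genes did. With the letter as a replicate block the counts were 6, 13, 44 lower and 2 higher, 37 lower and 2 higher, 1 and, for KO, 0. The letters were not shown to pair libraries: correlations of their deviations lay between -0.027 and 0.156 over 30 pairs, 5 of them over 0.1, although 14 of 15 libraries correlated best with their own letter. Every median over the members kept its sign under each scaling. Of 39 members lower with mepazine in R820W, 26 were kept in every fit without 1 library and 26 under upper-quartile scaling. The causes of these shifts were not tested. What depth limits was not tested beyond the floor for genes with 0 counts.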

Other observations

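Genes that regulate or neighbour the respiratory chain were counted too, beside 24.8% of all genes called lower with mepazine in R820W cells, 11.6% in WT cells and 8.61% in R820W against WT cells with vehicle. Of 18 tested regulators and maintenance genes of mitochondrial biogenesis, 14 fell in R820W cells (median log2 fold change -0.31), 8 fell and 1 rose in WT cells, and 3 were lower in R820W than in WT cells with vehicle. C10orf2, now TWNK, the helicase of mitochondrial DNA, gave -0.59 (edgeR adjusted p = 4.7e-08), TFB2M, a transcription factor of mitochondrial DNA, -0.52 (adjusted p = 1.39e-07), and PPRC1, a coactivator, -0.39 (adjusted p = 6.75e-07). The gene that rose in WT cells was GABPA (0.17, adjusted p = 0.025).

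Of 13 genes of the tricarboxylic acid cycle, 10 fell in R820W cells (median -0.20), among them IDH3A (-0.46, adjusted p = 1.76e-09), FH (fumarase, -0.35, adjusted p = 7.35e-08) and CS (citrate synthase, -0.29, adjusted p = 1.24e-06); 6 fell and 1 (OGDH) rose in WT cells. Of 12 genes of coenzyme Q synthesis, 3 fell (25%, near that background) and 1 rose in R820W cells (median -0.01): PDSS1, which makes the side chain, gave -0.65 (SE 0.068, adjusted p = 1.97e-08), and ADCK4 (COQ8B) rose (0.27, adjusted p = 0.0118), a call lost without R820W vehicle library a or b or mepazine library a. MTND5, a complex I subunit encoded in mitochondrial DNA and so outside the name rule, was at 2118, 2157 and 2264 CPM in R820W libraries with vehicle and 1940, 2559 and 2941 CPM with mepazine, with library a the lowest and the groups overlapping.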
